A study of Drosophila melanogaster with 18 samples.

Results

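The genes described here are Egfr, which encodes the epidermal growth factor receptor of Drosophila, the ligand genes spi, vn and Krn, the ligand processing genes S, rho and ru, and the feedback inhibitor genes aos, kek1 and sty. They were chosen by name, as the receptor with its ligands and their closest regulators, and make up 10 of the 17873 genes of the annotation used here. Binding was measured by Targeted DamID (TaDa), in which a protein of interest is fused to a bacterial methylase (Dam) that marks GATC sites near the fusion, so that marked DNA can be amplified and sequenced. The series comprised 18 samples of midguts from mated adult females, 3 for each of 6 genotypes. In ISCs/EBs (intestinal stem cells and enteroblasts, together the progenitor cells) transgenes were driven by esg-Gal4, and in ECs (the absorptive enterocytes) by Myo1A-Gal4. They were Dam alone (UAS-LT3-Dam), Dam fused to a PolII subunit (UAS-LT3-Dam-PolII) and Dam fused to the transcription factor Ets21c (UAS-LT3-Dam-ets21c-RA). All groups also carried UAS-GFP and tub-Gal80-TS. Adults were gathered for 2 days, mated for 2 more and then held at 29°C for 72 hours to switch on the transgene. The esg driver does not separate stem cells from enteroblasts, and each sample pools dissected midguts. More midguts were pooled per sample with the esg driver than with the Myo1A driver, so this number cannot be told apart from cell type.

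In this pathway the membrane-bound precursors Spi and Krn are carried out of the endoplasmic reticulum by Star (the product of S) and cut by rhomboid proteases, of which rho and ru encode members, to release active ligand. Vn is a secreted, neuregulin-like ligand that needs no such cut. Active receptor signals through Ras and ERK, and the inhibitors aos, kek1 and sty are known feedback targets in several fly tissues. In the adult midgut EGFR signaling is known for its permissive role in stem cell division, with vn made in the visceral muscle and spi and Krn in the epithelium.

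The authors' deposited table gives a list of genes per fusion and cell type, each gene with a single pooled height, which is a log2 ratio of fusion signal to Dam-only signal, and an FDR. For Ets21c the height is that of a binding peak assigned to the gene, and for PolII (RNA polymerase II) it is the mean ratio over the transcript. No value of a single replicate was used here, so no height has a spread and no difference between heights could be tested against one. The read depth is unknown. A gene absent from a list did not pass the authors' limits, which does not show that the protein is absent from it.

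Of the 10 genes, 7 were in the Ets21c list of ISCs/EBs, against 28.9% of all genes, and 7 in the Ets21c list of ECs, against 27.1%. They were the same genes in both cell types, namely Egfr, spi, vn, S, ru, aos and sty. Of all Ets21c-bound genes of ISCs/EBs, 66.2% were also listed in ECs, and 7 genes are too few to read as a difference from that share. Genes in both Ets21c lists made up 19.1% of the annotation. PolII was listed at 6 of the 10 in ISCs/EBs, against 12.4% of all genes, and at none in ECs, against 5.29%. The 6 were the Ets21c-bound genes other than vn, so 6 of the 10 were in both lists of ISCs/EBs, against 8.74% of all genes, and 0 in both lists of ECs, against 3.37%. Krn, rho and kek1 were in no list, as were 60.1% of all genes. The pattern of both Ets21c lists together with PolII in ISCs/EBs alone was thus that of 6 members, against 4.44% of all genes.

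**Figure D1:**
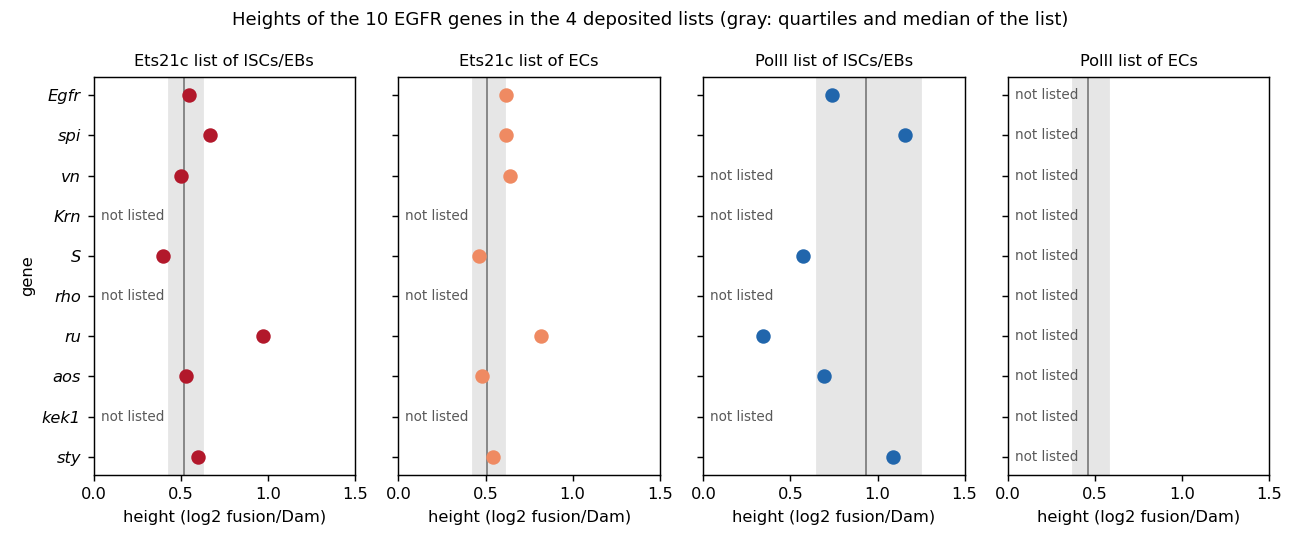
Height (log2 of fusion signal to Dam-only signal, x axis) of each of the 10 genes in the 4 deposited lists, with the quartiles and the median of each whole list in gray. ru stands above the upper quartile of both Ets21c lists at 0.97 and 0.82 and below the lower quartile of the PolII list of ISCs/EBs at 0.345, and no gene is in the PolII list of ECs.

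Egfr (FBgn0003731, chr2R:21522420-21559977, plus strand, BDGP6) was listed for Ets21c at 0.55 in ISCs/EBs (FDR 1e-04) and at 0.62 in ECs (FDR 0.00762). Its PolII height in ISCs/EBs was 0.736 (FDR 5.9e-09). Its Ets21c height exceeded that of 56.2% of the listed genes in ISCs/EBs and of 75.7% in ECs, and its PolII height that of 33.1%. The receptor gene was therefore near the middle of the Ets21c list of ISCs/EBs and in the lower part of the PolII list. Its EC peak had one of the weakest FDRs of that list, with only 3.17% of listed genes at a higher one. The EC height and FDR were shared with lncRNA:CR44725, which lies inside Egfr on the other strand, and the height and FDR of ISCs/EBs with CG30283, also inside it. In all, 30 other genes of the list had this pair of values in ISCs/EBs, and 3 had that of ECs. A further gene inside Egfr, CG33226, was PolII-bound in ISCs/EBs at 1.489. TaDa does not read the strand, so PolII on such an inner gene and PolII on Egfr cannot be told apart where they overlap.

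The ligand gene spi (FBgn0005672, chr2L:19567900-19577315, minus strand), which encodes the main activating ligand, had the largest PolII height of the 10 genes in ISCs/EBs, at 1.157 (FDR 1.9e-08), above 68.1% of the list. This is 2.23 times the signal of Dam alone on the linear scale. Its Ets21c height was 0.67 in ISCs/EBs (FDR 1e-04) and 0.62 in ECs (FDR 0.00668), above 81.5% and 75.7% of the listed genes. Among the Ets21c-bound members spi was thus next after ru in ISCs/EBs, and in ECs its height equalled that of Egfr. The EC height and FDR were those of mir-2a-2 and mir-2b-2 as well, microRNA genes inside spi, and no other gene of the list had this pair of values. In ISCs/EBs the neighbors msb1l, 385 bp away, and CG13077, 540 bp away on the other side, had the values of spi, a pair of values held by 19 other genes of the list in all.

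The ligand gene vn (FBgn0003984, chr3L:5813338-5845664, minus strand) was listed for Ets21c at 0.50 in ISCs/EBs (FDR 1e-04) and at 0.64 in ECs (FDR 1e-05). It was in neither PolII list, and was the only Ets21c-bound member without PolII, a pattern that 12.1% of all genes had. Its height exceeded that of 41.5% of the Ets21c list in ISCs/EBs and of 79.5% in ECs, the largest shift in rank among the members. Of 7 markers of visceral muscle, the tissue known to make Vn, how (0.372) and Mef2 (0.349) were PolII-bound in ISCs/EBs. Both heights were close to the smallest of that list, 0.301. The marker bt had no PolII but was Ets21c-bound in ISCs/EBs at 0.8, as were how (0.62) and Mef2 (0.6, and 0.63 in ECs). Mhc, Act57B, Mlc2 and Tm2 were in no list, and none of the 7 was PolII-bound in ECs. The part of muscle cells in the signal was not tested. The neighbors of vn within 5 kb included S6k and kri, with larger Ets21c heights of 0.90 each in ISCs/EBs and 0.76 and 0.83 in ECs, and mad2, 244 bp away, in no list.

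The other epithelial ligand gene, Krn (FBgn0052179, chr3L:17649562-17654280, minus strand), was in no list. It lies within Ndfip and shares its annotated start, and Ndfip was in no list either. The divergent gene CG7484, which begins 336 bp from that start, was Ets21c-bound at 0.89 in ISCs/EBs and 0.71 in ECs, and the heights of Pep, 4525 bp away, were 0.73 and 0.49. A height as large as that of most members was therefore listed for a gene directly beside Krn and not for Krn.

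Of the processing genes, S (FBgn0003310, chr2L:1049674-1077815, minus strand), the trafficking partner of the ligand precursors, had the lowest Ets21c heights of the bound members, 0.40 in ISCs/EBs (FDR 1e-04) and 0.46 in ECs (FDR 2e-05). They exceeded 16.2% and 33.3% of the listed genes. Its PolII height in ISCs/EBs was 0.573 (FDR 9.5e-12), above 18.6% of that list. S was low in all 3 lists that held it, and no gene within 50 kb had its height and FDR in any of them.

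The rhomboid protease gene ru (FBgn0003295, chr3L:1370628-1387437, plus strand) stood at the other end. Its Ets21c height was 0.97 in ISCs/EBs and 0.82 in ECs, each with an FDR listed as 0, above 98.6% and 95.7% of the listed genes. The linear ratio over Dam alone was 1.96 in ISCs/EBs. Its PolII height was the lowest of the members, 0.345 (FDR 6.8e-06), with 1.90% of the PolII list of ISCs/EBs below it. The smallest height in that list was 0.301, so ru was just inside it.

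The peak values of ru were not its own alone. ru lies inside Ptp61F, a phosphatase gene of 132765 bp on the opposite strand, and Ptp61F and tRNA:Glu-CTC-3-1, which lies inside ru, had the Ets21c height and FDR of ru in both cell types. Ptp61F was PolII-bound in ISCs/EBs at 0.874. PolII on ru and PolII on Ptp61F cannot be told apart over the interval they share.

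The protease gene rho (FBgn0004635, chr3L:1463811-1468944, plus strand) lies in the same span of Ptp61F, 76373 bp beyond the end of ru, and was in no list. Its neighbors lncRNA:CR44842 and Naa30B were in no list either, and neither was stet, another rhomboid gene, just outside the span of Ptp61F. Within the span of Ptp61F, the genes listed for Ets21c apart from Ptp61F, ru and tRNA:Glu-CTC-3-1 were CG9166 at 0.67 and tRNA:Glu-CTC-3-3 at 0.4, both in ISCs/EBs alone, and none lay between the end of ru and rho.

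**Figure D2:**
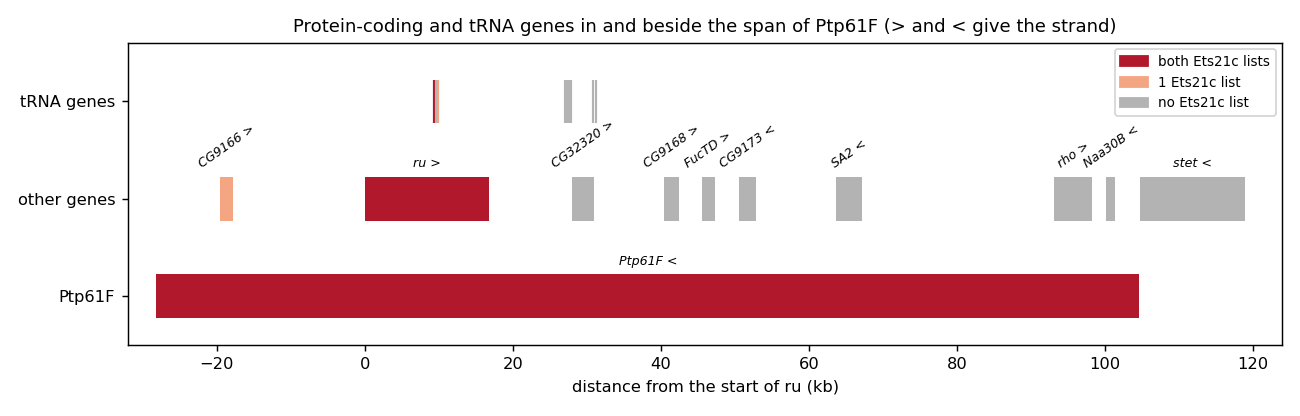
Positions of protein-coding and tRNA genes in and beside the span of Ptp61F, in kb from the start of ru (x axis), colored by the number of Ets21c lists that hold them (robl62A, inside stet and in no list, is not drawn, and tRNA genes are drawn as lines). ru, Ptp61F and tRNA:Glu-CTC-3-1 have the heights 0.97 and 0.82 in common, and rho lies 76373 bp beyond ru among genes in no list.

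Of the inhibitors, aos (FBgn0004569, chr3L:16470386-16483650, minus strand), which encodes a secreted protein that binds and sequesters Spi, was listed for Ets21c at 0.53 in ISCs/EBs (FDR 1e-04) and at 0.48 in ECs (FDR 6e-04). These heights exceeded 50.6% and 40.4% of the listed genes. Its PolII height in ISCs/EBs was 0.695 (FDR 6.5e-09), above 29.3% of the list. aos was close to Egfr in both heights of ISCs/EBs. It lies inside CG33158, a gene of 76964 bp on the other strand, which had the Ets21c height and FDR of aos in both cell types and was in no PolII list. The values of aos were held by 24 other genes of the list in ISCs/EBs and by 8 in ECs.

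The inhibitor gene sty (FBgn0014388, chr3L:3401153-3424935, minus strand), which encodes Sprouty, an intracellular brake on receptor tyrosine kinases, was listed for Ets21c at 0.60 in ISCs/EBs and 0.54 in ECs (FDR 1e-04 in each), above 68.7% and 58.8% of the listed genes. Its PolII height in ISCs/EBs, 1.087, was next to that of spi among the members and had the smallest FDR of the 6, 4.7e-14. The microRNA gene mir-2282, inside sty, had its Ets21c height and FDR in ISCs/EBs but was at 0.35 in ECs, below the 0.54 of sty. The pair of values of sty in ISCs/EBs was held by 28 other genes of the list in all. The remaining inhibitor gene, kek1 (FBgn0015399, chr2L:12817000-12822787, minus strand), which encodes a transmembrane protein that binds the receptor, was in no list, and no other annotated gene lies within 5 kb of it.

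Between the cell types the Ets21c heights of the 7 bound members differed by at most 0.15 in either direction. The lists give no peak positions, so the heights of a gene in the cell types may be those of different peaks. For Egfr and spi, the nearby genes with equal height and FDR in ISCs/EBs were not those in ECs. For ru and aos they were the same in both cell types. The height in ECs was above that in ISCs/EBs for vn (by 0.14), Egfr (0.07) and S (0.06). It was lower in ECs for ru, by -0.15, for sty, by -0.06, and for spi and aos, by -0.05 each. The median difference was -0.05 over the 7 members and -0.03 over the 3417 genes in both Ets21c lists, whose middle 50% ran from -0.14 to 0.08. Only ru lay below that range and only vn above it, and with no replicate values none of these differences can be called larger than its error. The median height of the bound members was 0.55 in ISCs/EBs and 0.62 in ECs, beside 0.52 and 0.51 over the whole lists, and 5 of the 7 were above the median of the list in each cell type.

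**Figure D3:**
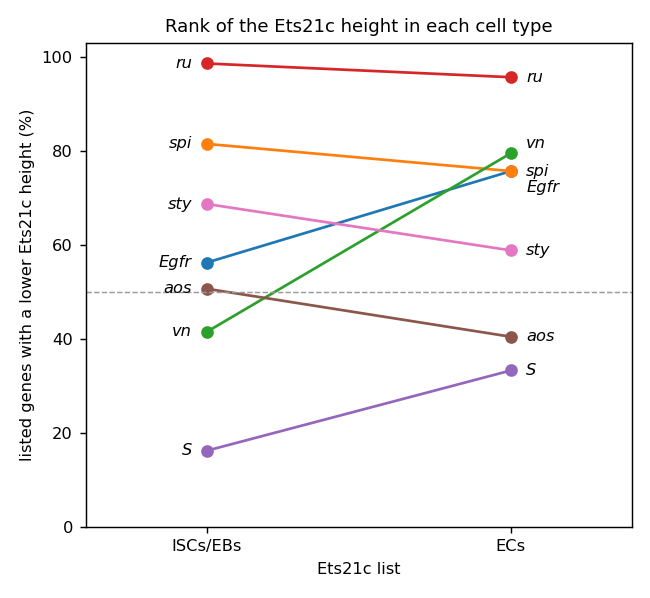
Share of listed genes with a lower Ets21c height (%, y axis) for the 7 Ets21c-bound members in ISCs/EBs and ECs, each gene joined by a line and the dashed line at the middle of the list. ru is highest and S lowest in both cell types, and vn moves from 41.5% to 79.5%. The height of a gene need not come from the same peak in both cell types.

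Of the 10 members, 7 were in both Ets21c lists, and 6 of these had PolII in ISCs/EBs alone. The PolII list of ECs held just 5.29% of all genes, so the absence of 10 genes from it does not set the members apart. All 6 members with PolII in ISCs/EBs were Ets21c-bound there, as were 70.7% of all genes with PolII, and 6 of the 7 Ets21c-bound members had PolII, against 30.3% of all Ets21c-bound genes. None of the 6 was PolII-bound in ECs, against 32% of the genes with PolII in ISCs/EBs. A count of 0 among 6 genes is too small a basis to read as a difference from such a share. The PolII list of ECs was shorter and lower, with a median height of 0.46 against 0.93, and did not hold the enterocyte marker Myo31DF, which was listed at 0.472 in ISCs/EBs. What this has to do with the members' absence was not tested. The share of genes with PolII in ISCs/EBs that were also PolII-bound in ECs rose with their height in ISCs/EBs. With that PolII list cut by height into 4 groups of nearly equal size, it was 6.32% in the lowest, which held ru and S, 17.8% in the next, which held Egfr and aos, 41.5% in the group of spi and sty, and 62.5% in the highest, which held no member. The median PolII height of the 6 members was 0.72, below the 0.93 of the whole list, and only spi and sty were above it. In ECs none of the 7 Ets21c-bound members was PolII-bound, against 12.4% of the Ets21c-bound genes. With 7 genes, this count too cannot be read as a difference from that share. The smallest height in the PolII list of ECs was 0.301, and what the members measured below the limits is not known.

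In ISCs/EBs the heights of the fusions ordered the members differently. spi and sty were above the median of both lists, S was below both, Egfr and aos were just above the median for Ets21c and below it for PolII, and ru combined the highest Ets21c height of the members with the lowest PolII height. Within a cell type, the same Dam-only libraries stand under the ratios of both fusions.

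**Figure D4:**
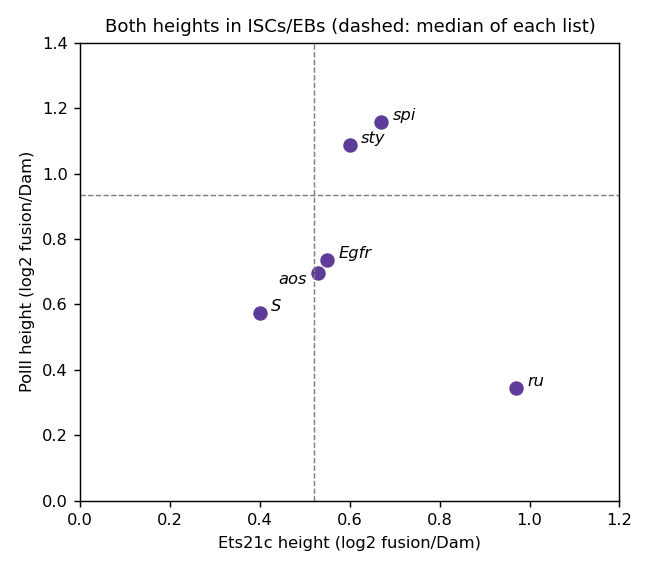
Ets21c height (x axis) against PolII height (y axis), both log2 ratios to Dam-only signal, for the 6 members in both lists of ISCs/EBs, with dashed lines at the list medians of 0.52 and 0.93. ru is at 0.97 and 0.345, apart from the other 5 genes.

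The members in a list were the longer ones. The 7 listed genes had a median length of 23783 bp and 74 GATC sites, and the 3 in no list 5134 bp and 12 sites, beside 2165 bp and 10 sites for protein-coding genes. Every listed member was longer than 6 kb and every other member shorter. Among protein-coding genes of 6 kb or more, 48.5% were in the Ets21c list of ISCs/EBs, 47.0% in that of ECs and 28.2% had PolII in ISCs/EBs. Among shorter ones the shares were 27.4%, 25.8% and 12.4%. The split at 6 kb was chosen after the lengths had been seen. The part of length in the members' listing was not tested. All 3 genes in no list had several GATC sites, from 36 for kek1 to 52 for Krn in the gene and 5 kb on each side, close to the median of 47 for protein-coding genes.

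**Figure D5:**
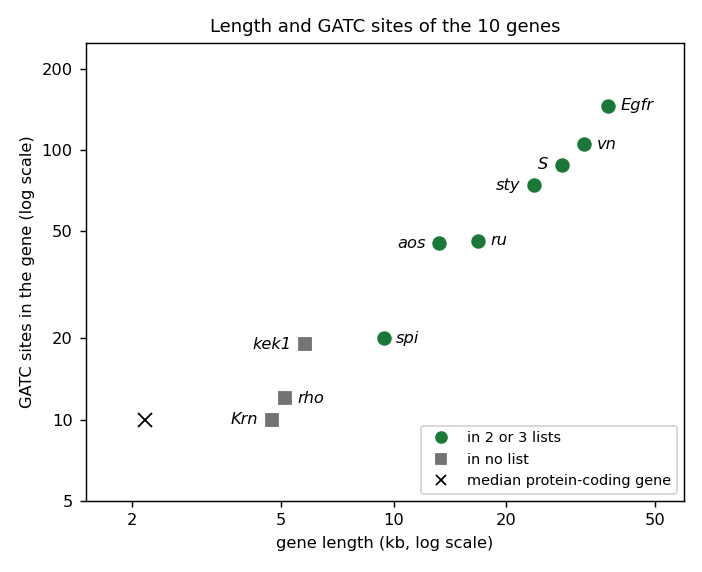
Gene length (kb, log scale, x axis) against the number of GATC sites in the gene (log scale, y axis) for the 10 members, with the median protein-coding gene as a cross. Krn, rho and kek1, in no list, are the shortest, and Egfr is the longest with 146 sites.

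Sequences were examined because Ets21c belongs to the ETS family, whose members bind sites with the core GGAA, and because TaDa reads only GATC sites. Motifs were counted on both strands in a window from 250 bases before to 50 after the annotated start of the gene. The core GGAA was present in the windows of 8 of the 10 members, against 87.8% of all windows, and the longer CCGGAA, which contains it, only in that of S, against 7.02%. CCGGAAGT, which contains both, was in no member's window (0.399% of all windows), and the AP-1 site TGANTCA in none (6.32%). GATC was found in the windows of rho, aos and sty (46.3% of all windows). The upstream bases of ru, the member with the largest Ets21c height, of S, with the lowest, and of rho, in no list, are shown to compare them. They were read 5′ to 3′ on the strand of the gene from the RefSeq assembly (release 6), up to the first exon of another gene. Capitals mark GGAA or its reverse complement TTCC, the longer CCGGAA or TTCCGG, and GATC.
ru, chr3L:1370378-1370627, plus strand: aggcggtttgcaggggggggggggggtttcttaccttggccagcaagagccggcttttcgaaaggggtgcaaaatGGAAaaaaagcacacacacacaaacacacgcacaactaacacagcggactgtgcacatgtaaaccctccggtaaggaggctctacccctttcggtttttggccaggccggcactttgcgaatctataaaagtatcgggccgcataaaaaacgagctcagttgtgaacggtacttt
S, chr2L:1077816-1077947, minus strand: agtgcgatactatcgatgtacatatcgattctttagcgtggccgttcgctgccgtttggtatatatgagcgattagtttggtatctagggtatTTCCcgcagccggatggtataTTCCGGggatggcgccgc
rho, chr3L:1463561-1463810, plus strand: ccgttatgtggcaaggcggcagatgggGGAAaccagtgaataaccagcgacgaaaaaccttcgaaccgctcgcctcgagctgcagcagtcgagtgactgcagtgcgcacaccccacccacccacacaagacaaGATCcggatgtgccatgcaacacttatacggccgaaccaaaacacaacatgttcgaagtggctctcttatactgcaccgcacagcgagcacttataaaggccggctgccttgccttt
The bases shown of ru and S hold no GATC, and those of rho hold 1 of the 2 in its window. GGAA or TTCC is present in all 3, whether the gene was in an Ets21c list or not.

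Over the gene and 5 kb on each side, CCGGAAGT occurred at 4 members, Egfr, spi, rho and aos, against 26.3% of all genes. Of these rho was in no list, and 4 Ets21c-bound members (vn, S, ru and sty) had no match. The window is longer for longer genes, and it can run past a neighboring gene, beyond which the authors assigned no peak. aos had 4 matches, a number that 0.399% of all genes reach or exceed, of which a pair stands head to tail in an intron. These matches are shown with 11 bases before the first match, on the strand of the match and with CCGGAAGT in capitals, beside that of rho, which lies in its coding sequence, and that of spi, which lies beyond its 3′ end.
aos, intron, chr3L:16473343-16473372, plus strand: gagagcgcataCCGGAAGTCCGGAAGTgat
aos, intron, chr3L:16476389-16476418, plus strand: ttcatcccaagCCGGAAGTagaaaagattt
aos, upstream at -3222 bp from the start, chr3L:16486854-16486883, minus strand: atagaaaatcgCCGGAAGTcattatacaaa
spi, chr2L:19567853-19567882, minus strand: aatttaaggtgCCGGAAGTcaagatcttct
rho, coding sequence, chr3L:1465724-1465753, minus strand: atcctccgactCCGGAAGTggcgtggccgg
A match is a stretch of letters and not a measured site. aos, with the most matches, had an Ets21c height near the middle of both lists, and ru, with the largest height, had none.

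The genes with heights most like those of a member were sought among the genes in exactly the same lists, by the largest difference in height over these lists. For spi the closest of 793 genes over 3 lists was edl, whose product binds the ETS proteins Pointed and Yan, at 0.63, 0.67 and 1.123, followed by ITP. For sty they were Dad and rgr, for Egfr Arl8 and CG13868, for aos LamC and WASp, and for S CG6333 and fus, each within 0.04 in every list. For ru the closest, CG13917 and Evi5, differed by 0.11 and 0.12, so that no gene matched it as closely. For vn lncRNA:CR43857 had the same heights over its 2 lists, and CG15286 differed by 0.01.

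Further genes of the family and pathway were looked up as wider lists. Of 14 relatives of the members, 5 were Ets21c-bound in ISCs/EBs and 4 in ECs, against 28.9% and 27.1% of all genes. PolII was listed at 4 in ISCs/EBs and 3 in ECs, against 12.4% and 5.29%. In no list were 7, against 60.1%. Of the other rhomboid genes, rho-4 was Ets21c-bound at 0.46 in ISCs/EBs and 0.75 in ECs with PolII at 0.54 in ISCs/EBs. rho-7, a mitochondrial protease gene, was in all 4 lists, at 0.39 and 0.33 for Ets21c and 0.975 and 0.332 for PolII. stet, rho-5 and rho-6 were in none. The ligand gene grk, known from the germline, was Ets21c-bound in ISCs/EBs alone (0.64). Of the kekkon relatives of kek1, kek5 was Ets21c-bound in ISCs/EBs (0.44), kek4 was PolII-bound in ECs (0.308), and kek2, kek3 and kek6 were in no list, like kek1. Among the relatives PolII in ECs was thus found at cni, which encodes a cargo receptor, at 0.429, and at rho-7 and kek4. The heights of rho-7 and kek4 were close to the smallest of that list, 0.301. None of the members was in that list, which held 5.29% of all genes.

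Of 19 genes of the Ras/ERK cascade, 12 were Ets21c-bound in each cell type, against 28.9% and 27.1% of all genes. In both Ets21c lists were 10, against 19.1%. PolII was listed at 10 in ISCs/EBs and 1 in ECs, against 12.4% and 5.29%, and 5 were in no list, against 60.1%. In both Ets21c lists, with PolII in ISCs/EBs alone, were 8 of these 19 genes, beside 6 of the 10 members and 4.44% of all genes. Its median Ets21c height was 0.67 in ISCs/EBs and 0.54 in ECs, and that of the bound members 0.55 and 0.62, so the order of the medians differed between the cell types, and the difference was not tested. Ras85D, the Ras gene, was the one gene of the cascade PolII-bound in ECs (0.316, and 1.431 in ISCs/EBs), and the genes of the adaptor Shc and the exchange factor Sos were in no list.

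The labels were checked against markers. In ISCs/EBs PolII was listed at 7 of 8 progenitor markers, and in ECs at 0. For the 8 enterocyte markers the count was 3 in each cell type, so these markers did not separate the PolII list of ECs from the other. Myo31DF, the Myo1A gene after which the EC driver is named, was listed for PolII at 0.472 in ISCs/EBs and not in ECs. mex1 and GATAe were at 1.105 and 1.543 in ISCs/EBs and at 0.594 and 0.56 in ECs, and Jon99Ci was listed in ECs alone (0.583). The PolII lists differ in scale, with medians of 0.93 in ISCs/EBs and 0.46 in ECs, so these heights cannot be compared directly between them. Of the others, nub and Amy-p had no PolII in either cell type, and betaTry and lab were in no list. None of 5 enteroendocrine markers was PolII-bound, and of 4 hemocyte markers srp alone, in ISCs/EBs at 0.861.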

How the data were processed

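TaDa libraries of 18 midgut samples were sequenced as 50 bp single-end reads. Per GATC fragment, the authors computed the log2 ratio of fusion to Dam-only signal (damidseq_pipeline), called Ets21c peaks of at least 2 fragments at an FDR under 1% in each replicate used (replicate 2 was left out as noisy in both cell types) and assigned them to genes within 5 kb where no other gene lay between. PolII ratios were averaged over transcripts of annotation release 6.03 and over replicates. The deposited table holds these log2 heights and the FDRs (q-values computed by the authors, for PolII from randomized data). The methods state a minimum Ets21c height of 0.3, the table's headings 0.1, and 161 and 125 listed genes lie below 0.3 in ISCs/EBs and ECs. The build named in the submitters' processing notes is dm3, and the files hold no coordinates.

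Here members were matched by symbol. Shares of all genes use the 17873 named genes of Ensembl release 115 (FlyBase 6.54, BDGP6), to which 5163 and 4838 Ets21c-bound and 2209 and 946 PolII-bound genes of ISCs/EBs and ECs matched by ID or symbol. Window shares use 17796 genes on assembled chromosomes. The sequence of Egfr, on 2R, is not shown. No test was run, since each gene has 1 pooled value per list. The genes, the wider lists, the markers and the motifs were chosen with earlier results of these data known. Named were all members, genes with a member's height and FDR within 50 kb, the 2 closest genes by height for members in at least 2 lists, and genes of the wider lists; other neighbors within 5 kb and genes in the span of Ptp61F were chosen after their values had been seen. Counting functions were tested on simulated data. Alternatives were stricter heights and FDRs, matching by ID, equal values counted once, protein-coding genes and shorter promoter windows. Python 3.11.15, numpy 2.4.6 and matplotlib 3.10.9 were used.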

Additional observations from a re-analysis of the deposited data

How the results depend on the processing

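All 24 recounts of members in the lists stayed within 1.5 times the value given, and 20 were unchanged. Several of them could not have changed. Stricter limits leave a count of 0 in ECs at 0. A height of at least 0.3 removes no gene from the PolII lists, whose smallest height was 0.301. No members of a list had the same height and FDR, so counting equal values once changes nothing. The number of unchanged recounts is therefore no measure of stability. At a height of at least 0.5 the Ets21c count fell to 6 in ISCs/EBs (without S) and to 5 in ECs (without S and aos), and the PolII count in ISCs/EBs to 5 (without ru). At an FDR of at most 0.001 the Ets21c count of ECs was 5, without Egfr and spi. The share of all genes at these stricter limits was not counted, so these counts have no background beside them. The shares given above are for the whole lists, whose median Ets21c heights of 0.52 and 0.51 are close to the limit of 0.5. Among protein-coding genes alone the background shares were 31.8% and 30.3% for Ets21c in ISCs/EBs and ECs and 15.8% and 6.76% for PolII. With the 250 bases before the start alone, GGAA was found at 7 members and GATC at 2. No paired analysis was possible because the table holds pooled values with no replicate numbers, and for the same reason no replicate could be left out. The depth behind each height is unknown, so the precision of a height or of an absence cannot be given.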
